A study of Drosophila melanogaster with 11 samples.

Results

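The comparison described here set heads of flies moved away from 25 °C, either down to 18 °C or up to 29 °C, against heads of flies that stayed at 25 °C, and looked for transcripts that moved to the same side at both of the new temperatures. Its groups held 8 of the 11 libraries of the series: 3 libraries of CantonS males that spent 10 days at 18 °C, 3 of males at 29 °C and 2 of males that stayed at 25 °C. The remaining 3 libraries came from males frozen just before the exposure (pre-treatment), which had also lived at 25 °C but were 10 days younger, and they served as a further 25 °C reference. All 11 libraries entered the fit, so the pre-treatment libraries also shape the estimate of the spread behind each p-value. CantonS is a wild-type laboratory strain of Drosophila melanogaster, and no library carried a mutation, transgene or drug. All flies grew up at 25 °C in a cycle of light and dark and were mated before the sexes were separated. The labels name heads, while part of the series' design text names brains, and the labels were followed. Each library then pools heads of many males of 1 strain, so brain, eye, fat body and muscle are mixed, and fewer cells of a type cannot be told apart from less RNA per cell.

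The contrast was the mean of the 18 °C and 29 °C group means minus the 25 °C mean on log2(normalized reads + 1), so a positive value is higher away from 25 °C. A gene was called at a limma adjusted p under 0.05 (Benjamini-Hochberg over all tested genes) and an absolute log2 fold change above 0.5. Since a change at 1 temperature alone can pass this average, a gene was said to have moved the same way only if it was called and both single differences, 18 °C minus 25 °C and 29 °C minus 25 °C, lay on 1 side of zero at more than 0.5. These 2 differences share the 25 °C libraries, so a chance deviation of those libraries enters both.

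Among the genes that moved the same way were core components of the circadian clock, a feedback loop that keeps daily time in neurons, photoreceptors and glia of the fly head. In the main loop the transcription factors CLOCK and CYCLE bind E-box elements and switch on period (per), timeless (tim), vrille (vri), Pdp1 and clockwork orange (cwo). PER and TIM proteins then enter the nucleus and stop CLOCK, while VRI represses and PDP1 activates the Clk gene. Under light and dark cycles the transcripts of per, tim and vri peak around the start of the night and those of Clk and the photoreceptor protein cryptochrome (cry) peak around dawn, so the level found in a head depends on the hour of freezing. The time of day at which the flies were frozen is not given in the sources used here.

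The libraries held 32.06 to 123.4 M reads, with 62.89 and 56.4 M in the 25 °C libraries. The 25 °C libraries were unlike each other in part: they lay at opposite ends (0.338 and -0.338) of the first component of within-group deviations, which took up 48.4% of the within-group variance. Their summed small nucleolar and spliceosomal RNAs were 11274 and 38018 normalized reads, against 31625 to 45802 at 18 °C and 28300 to 42508 at 29 °C. Calls that were lost without 1 of these libraries are given with their values or highest adjusted p without it.

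In linear transcripts 37 of 12676 tested genes (0.292%) were called, 18 higher and 19 lower away from 25 °C, and 912 had an unadjusted p under 0.05. Of the 37, 25 moved the same way (0.197% of tested genes), 12 of them higher (0.0947%) and 13 lower (0.103%). Whatever the test, 398 tested genes (3.14%) had both single differences past 0.5 on 1 side, 283 higher and 115 lower. In each of the other 12, 1 single difference did not reach 0.5. In all 25 genes both 25 °C libraries lay outside the range of the 6 shifted libraries, which was so for 709 tested genes (5.59%) whatever their test. The gap between the shifted and the 25 °C libraries ranged from 0.31 to 1.64 on the log2 scale and was wider than the distance between the 25 °C libraries in 22 of the 25. Taken 1 temperature at a time, 24 of the 25 were called at 18 °C (410 tested genes, 3.23%) and 19 at 29 °C (81 tested genes, 0.639%), and 18 in both. The 25 genes were picked with these same libraries, so the separation, the gaps and the single calls describe them and are no further test. Most genes that separated the shifted temperatures were graded instead: of 1349 genes called between 29 and 18 °C (10.6%), 1210 (89.7%) had their fitted 25 °C mean between the others.

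**Figure D1:**
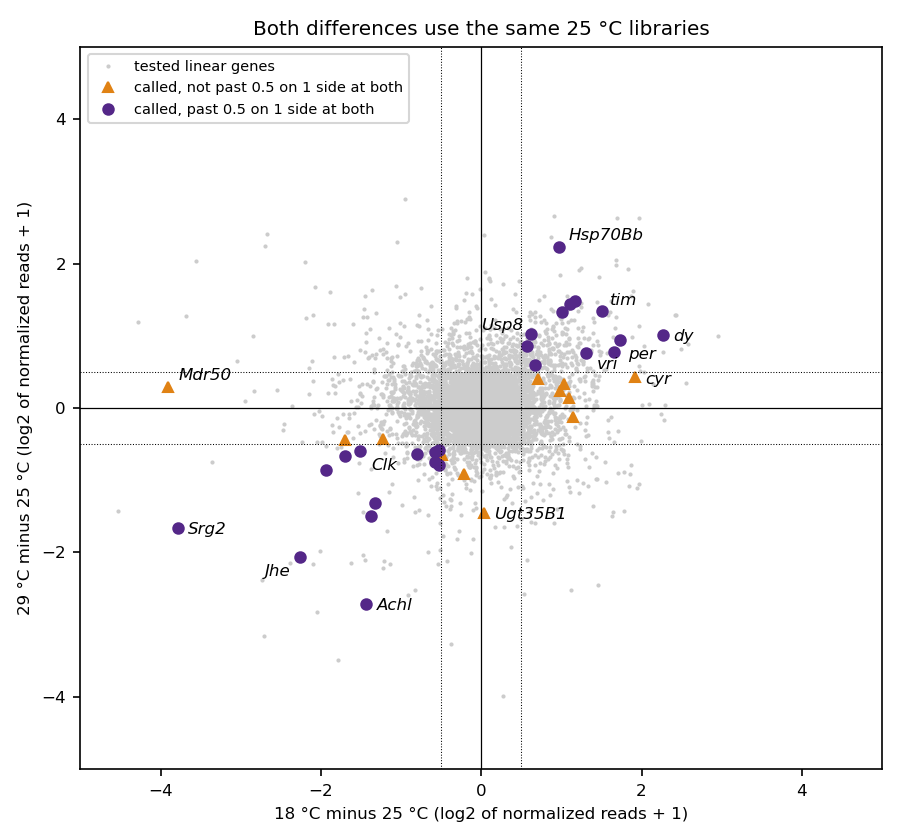
Each point is 1 of 12676 tested linear genes, with its fitted log2 difference of 18 °C minus 25 °C on the x axis and of 29 °C minus 25 °C on the y axis. Purple circles mark the 25 genes that moved the same way, in the upper right and lower left corners, orange triangles the other 12 called genes, and dotted lines a difference of 0.5. The axes share the 25 °C libraries.

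The clock genes supplied 4 of the 12 rises and 1 of the 13 falls. timeless (tim, 2L, 3493986 to 3508119, minus strand), whose protein is degraded in light and partners PER, had 46692, 46348 and 45231 normalized reads at 18 °C and 41669, 40678 and 41502 at 29 °C, against 16563 and 15964 at 25 °C. The group means were 2.83 times the 25 °C mean at 18 °C and 2.54 times at 29 °C, and the libraries of a group lay close together. The log2 fold change of the contrast was 1.42 ± 0.056 (SE, limma adjusted p = 8.31e-07), made of 1.50 at 18 °C and 1.34 at 29 °C, and the difference between 29 and 18 °C did not pass the test (-0.16, limma adjusted p = 0.0782).

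period (per, X, 2685580 to 2692780, plus strand), which encodes the main repressor of the loop, had 12948, 13248 and 11221 normalized reads at 18 °C and 7689, 6616 and 7336 at 29 °C, against 4009 and 3518 at 25 °C. Here the groups were ordered, with 18 °C highest, 29 °C between and 25 °C lowest, and none overlapped. The contrast was 1.33 ± 0.0958 (SE, limma adjusted p = 0.000171), with 1.73 at 18 °C and 0.94 at 29 °C. vrille (vri, 2L, 5288944 to 5311223, plus strand), the repressor of Clk, showed the same order, with 35858, 34868 and 33675 normalized reads at 18 °C and 24087, 22928 and 24573 at 29 °C, against 14412 and 13665 at 25 °C. Its single differences were 1.31 and 0.77 (limma adjusted p of the contrast = 0.000171).

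The other E-box targets lay on the same side with smaller differences that were not called. Pdp1, the activator of Clk, had 53020, 58651 and 40058 normalized reads at 18 °C and 46385, 41047 and 45806 at 29 °C, against 39875 and 26325 at 25 °C, a contrast of 0.54 ± 0.194 (SE, limma adjusted p = 0.497). The 18 °C library with least Pdp1 was barely above the higher 25 °C library. cwo, a repressor that competes at E-boxes, had 12134, 12917 and 10818 at 18 °C and 11064, 10484 and 10754 at 29 °C, against 9587 and 8149 at 25 °C, a contrast of 0.36 ± 0.0934 (SE, limma adjusted p = 0.239). In each of the 5 evening-peaking targets all 6 shifted libraries lay above both at 25 °C, as in 335 tested genes (2.64%). Of the 5, tim, per and vri were called with these same libraries, so the count describes the targets and is no further test.

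Clk (3L, 7763233 to 7775603, minus strand), which encodes the activator itself, went the other way. It had 1555, 1596 and 1255 normalized reads at 18 °C and 2964, 2581 and 2723 at 29 °C, against 4550 and 3791 at 25 °C. All 6 shifted libraries were below both at 25 °C, as in 374 tested genes (2.95%), and the difference was larger in the cold, with log2 fold changes of -1.51 at 18 °C and -0.59 at 29 °C (contrast -1.05 ± 0.119, SE, limma adjusted p = 0.00343). Taken alone, 29 °C against 25 °C was not called for Clk (limma adjusted p = 0.0869). CG32371, a gene that lies inside Clk on the same strand (7767269 to 7768352), had 36.36, 27.04 and 36.99 at 18 °C and 74.73, 63.16 and 74.42 at 29 °C, against 142.8 and 117 at 25 °C. The counting of reads that overlap 2 genes is not described in the sources used here, so its fall cannot be told apart from that of Clk, and its call was lost without any 1 of 7 exposed libraries, 18 °C replicate 3 being the exception (limma adjusted p up to 0.338). cry, the blue light receptor of clock cells and the other dawn-peaking gene, had 11243, 10039 and 14009 at 18 °C and 10007, 12478 and 11186 at 29 °C, against 13588 and 18870 at 25 °C, a contrast of -0.49 ± 0.189 (SE, limma adjusted p = 0.557) with overlapping groups.

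Usp8 (3R, 21134262 to 21138214, plus strand), a ubiquitin protease known to act on CLOCK, was higher at both temperatures and more so in the warmth. It had 6774, 6810 and 6311 normalized reads at 18 °C and 8868, 8545 and 8740 at 29 °C, against 4351 and 4236 at 25 °C, with log2 fold changes of 0.63 and 1.02 (limma adjusted p of the contrast = 0.000428). Usp8 therefore ranked the shifted temperatures in the opposite order to per and vri. Of 22 clock genes tested, 4 were called higher (tim, per, vri and Usp8) and 1 lower (Clk), and the list median was 0.09 against 0.0 over all tested genes. The remaining 17 lay between -0.49 for cry and 0.54 for Pdp1. They include cyc, which encodes the partner of CLOCK (-0.05), and the kinase and phosphatase genes that set the pace of PER and TIM turnover, such as dco, the double-time kinase (0.12), sgg (-0.01) and tws (0.21). The clock neuropeptide gene Pdf (-0.03) and its receptor Pdfr (0.05) were not called either. All 4 called rises kept their call when any 1 of the 11 libraries was left out. Clk lost it without 25 °C replicate 1 (-0.92, limma adjusted p = 0.0682).

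**Figure D2:**
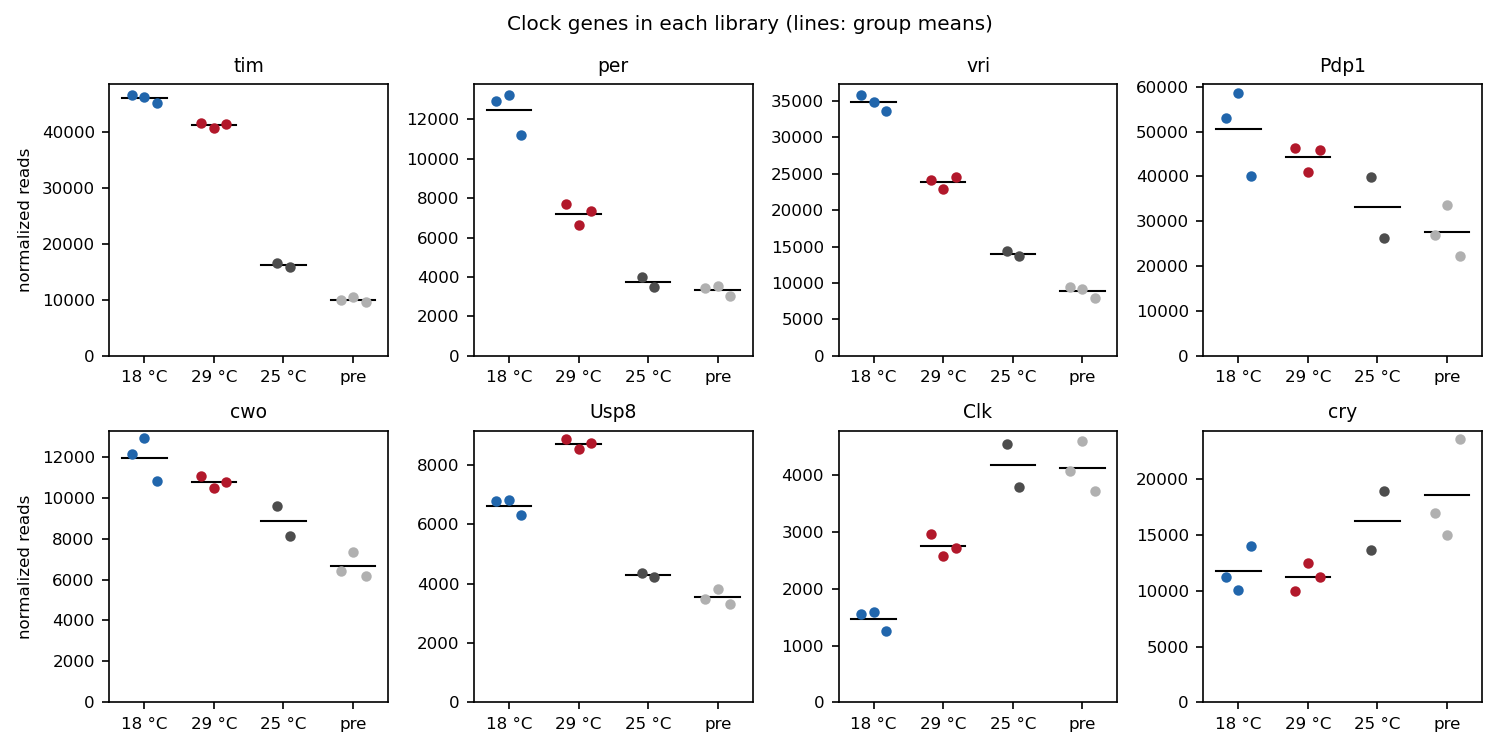
Normalized reads (y axis, from 0) of 8 clock genes in each library at 18 °C, 29 °C, 25 °C and before treatment (x axis). Points are libraries and lines are group means. tim, per, vri and Usp8 lie above both 25 °C libraries in all 6 shifted libraries, Clk lies below them, and Pdp1, cwo and cry were not called.

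The pre-treatment libraries lay on the 25 °C side for the clock genes. tim had 9953, 10509 and 9710 normalized reads before treatment and per had 3433, 3523 and 3017, all below the 6 shifted libraries. vri had 9466, 9233 and 7971. For tim and vri the 25 °C flies were also above the pre-treatment flies (25 °C minus pre-treatment 0.69, limma adjusted p = 0.000186, and 0.66, limma adjusted p = 0.0012), so that 25 °C stood between. per did not separate 25 °C from pre-treatment (0.18, limma adjusted p = 0.369), nor did Clk (0.01, limma adjusted p = 0.968), which had 4073, 4608 and 3719 before treatment. Neither reference has a recorded hour of freezing, so temperature and time of day cannot be told apart in these genes.

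Among 19 tested clock output genes of the head, 3 were called, all lower: Achl, which moved the same way, and Pdh and Ugt35B1, which fell through 29 °C. Over all tested genes 0.292% were called, 0.15% lower. The list median was -0.07, and 9 of the 19 had an unadjusted limma p under 0.05, as did 912 of all 12676 tested genes. The sum over the list was higher away from 25 °C. It was 394900 to 461600 normalized reads at 18 °C and 378300 to 415600 at 29 °C, against 356900 to 364800 at 25 °C. Before treatment the sum was 385400 to 420400. Achl (achilles, 2R, 14420324 to 14424764, plus strand), a clock-controlled gene of the brain that affects immune gene expression, had 1117, 1057 and 1029 normalized reads at 18 °C and 416.9, 465 and 443.5 at 29 °C, against 2993 and 2787 at 25 °C. It had the lowest adjusted p of the contrast among the genes described here (-2.07 ± 0.0723, SE, limma adjusted p = 4.94e-07). Both temperatures took it down, 29 °C further (-2.71) than 18 °C (-1.44), and the pre-treatment libraries were at 3234, 3173 and 3063, just above those at 25 °C.

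Jhe was among the falls that kept their call without any single library. Jhe, which encodes juvenile hormone esterase and clears the hormone from the haemolymph (2R, 16119793 to 16122773, plus strand), had 121.4, 126.2 and 164.7 normalized reads at 18 °C and 135, 174.2 and 163.9 at 29 °C, against 546.5 and 791.2 at 25 °C. The shifted groups overlapped (29 minus 18 °C 0.20, limma adjusted p = 0.604), and the gap to 25 °C was the widest of the 25 genes at 1.64 (contrast -2.16 ± 0.222, SE, limma adjusted p = 0.00207). Jhbp13, of the juvenile hormone-binding protein family, had 11929, 11901 and 11253 at 18 °C and 9950, 11790 and 12540 at 29 °C, against 17416 and 17437 at 25 °C (-0.60, limma adjusted p = 0.033). It was the only called gene of 12 tested genes with Jhbp names. Pre-treatment levels were on the 25 °C side for both, at 710.2, 600.8 and 1029 for Jhe. Jhbp13 lost its call without any 1 of 7 of them (18 °C replicates 1, 2 and 3, 29 °C replicate 2, 25 °C replicates 1 and 2 and pre-treatment replicate 1; limma adjusted p up to 0.261). The fat body and haemolymph markers, of which 0 of 32 were called, summed to 1722000 to 2106000 at 18 °C and 1551000 to 1909000 at 29 °C, against 1782000 to 1848000 at 25 °C, and overlapped.

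Srg2, a gene named for its regulation by STING, had 7.545, 8.064 and 5.966 normalized reads at 18 °C and 39.06, 23.96 and 43.6 at 29 °C, against 145.5 and 85.07 at 25 °C. Before treatment it had 253, 165.3 and 301.1, above all other libraries. A floor of 3 reads is 1.42 to 3.58 in the 18 °C libraries. The log2 fold changes were -3.79 and -1.66, the first of them the largest of the 25 genes at 1 temperature, and the call was lost without 25 °C replicate 1 (-2.34, limma adjusted p = 0.0874). Among 58 tested antimicrobial peptide and immune effector genes, 0 were called and the median was -0.10. Of these 58, 16 had an unadjusted limma p under 0.05, as did 912 of all 12676 tested genes. All 6 shifted libraries lay below both at 25 °C in 6 of the 58 and above both in 3 (2.95% and 2.64% of all tested genes).

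Acsx3, Ugt35E2 and Obp19b were also called lower. Acsx3, of the acyl-CoA synthetase family, had 3577, 3587 and 3545 normalized reads at 18 °C and 3801, 3985 and 4232 at 29 °C, against 6053 and 6388 at 25 °C (-0.72 ± 0.0683, SE, limma adjusted p = 0.00145). Ugt35E2, a UDP-glycosyltransferase, had 55.56, 73.05 and 84.72 at 18 °C and 62.84, 68.6 and 61.64 at 29 °C, against 183.1 and 182.9 at 25 °C (-1.43, limma adjusted p = 0.0112), but was not called without 25 °C replicate 1 (limma adjusted p = 0.128) or replicate 2 (0.0515). Obp19b, an odorant-binding protein, had 976.1, 870 and 1037 at 18 °C and 819.4, 841.7 and 875.7 at 29 °C, against 1422 and 1427 at 25 °C (-0.66, limma adjusted p = 0.0123). It was the only called member of 34 tested odorant-binding genes and was not called without 25 °C replicate 1, 25 °C replicate 2 or 29 °C replicate 2 (limma adjusted p = 0.138, 0.0576 and 0.0501).

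CG42329 had 279.9, 325.4 and 406.9 normalized reads at 18 °C and 302.3, 351.7 and 355.5 at 29 °C, against 802.8 and 875.2 at 25 °C. As for Jhe, the shifted groups overlapped (29 minus 18 °C 0.01, limma adjusted p = 0.975). The pre-treatment values, 842.2, 774.1 and 907.4, spanned those at 25 °C. CG14221 had 133.8, 143.7 and 108.6 at 18 °C and 277.7, 283.1 and 231.5 at 29 °C, against 352.4 and 492.4 at 25 °C, with a gap of 0.31 that was smaller than the distance between the 25 °C libraries, and it lost its call without any 1 of the 8 exposed libraries or pre-treatment replicate 3 (limma adjusted p up to 0.194).

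For the last 2 of the 13 falls the further reference did not side with 25 °C. CG11951, a peptidase-like gene, had 3280, 3097 and 3297 normalized reads at 18 °C and 2601, 2554 and 2891 at 29 °C, against 4494 and 4780 at 25 °C, but 3286, 3245 and 3468 before treatment. CG17646, of the ABCG transporter family, had 10362, 9718 and 9705 at 18 °C and 9127, 9528 and 9830 at 29 °C, against 15157 and 13401 at 25 °C, and 9343, 9581 and 8242 before treatment. For both genes the pre-treatment libraries overlapped the shifted ones, and 25 °C for 10 days was the group that stood apart (25 °C minus pre-treatment 0.48, limma adjusted p = 0.00447, and 0.66, limma adjusted p = 0.00143). CG17646 was not called without 25 °C replicate 1 (-0.47, limma adjusted p = 0.199) or 29 °C replicate 2 (-0.56, limma adjusted p = 0.0501).

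Of the rises outside the clock, gol was the most abundant. gol (goliath, 2R, 25072627 to 25084347, minus strand), an E3 ubiquitin ligase of endosomes, had 15357, 15507 and 15306 normalized reads at 18 °C and 19130, 19252 and 18410 at 29 °C, against 10217 and 10585 at 25 °C (0.71 ± 0.0539, SE, limma adjusted p = 0.000219). The pre-treatment libraries, at 12080, 11748 and 12552, fell between 25 °C and the shifted groups. Cyp6a8, a xenobiotic-metabolizing cytochrome P450, had 2686, 2847 and 2824 at 18 °C and 2302, 2769 and 2883 at 29 °C, against 1783 and 1701 at 25 °C and 956.9, 1042 and 875.5 before treatment. Its contrast of 0.64 (limma adjusted p = 0.0238) was no longer called without any 1 of the exposed libraries except 29 °C replicate 1, or without pre-treatment replicate 1 (limma adjusted p up to 0.18). Of 79 tested cytochrome P450 genes 2 were called, both higher, with a list median of -0.07.

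The 3 next rises were neighbours. lncRNA:CR45456 (2L, 9325845 to 9326721), lncRNA:CR45457 (9327039 to 9327553) and the protein-coding CG17005 (9327744 to 9330332) follow one another on the plus strand, 317 and 190 nt apart. lncRNA:CR45456 had 566.6, 640.4 and 489.2 normalized reads at 18 °C and 777, 620.7 and 700.6 at 29 °C, against 266.4 and 233.9 at 25 °C (1.32 ± 0.143, SE, limma adjusted p = 0.00265). CG17005 had 943.9, 1186 and 871.1 at 18 °C and 1233, 1245 and 1229 at 29 °C, against 597.7 and 404.1 at 25 °C (1.17, limma adjusted p = 0.00889). lncRNA:CR45457 had 212.6, 219.6 and 133.6 at 18 °C and 212.3, 246.1 and 242.8 at 29 °C, against 99.77 and 72.31 at 25 °C, and stood at the threshold (limma adjusted p = 0.0495), losing its call without any 1 library except 18 °C replicate 3 (limma adjusted p up to 0.208). Their log2 fold changes were alike, 1.01 to 1.17 at 18 °C and 1.33 to 1.48 at 29 °C. The next gene on the strand, Cks30A, a cyclin-dependent kinase subunit, also had all 6 shifted libraries above 25 °C (1.17, limma adjusted p = 0.176), whereas the glutamate transporter gene Eaat1 after it did not (0.15, limma adjusted p = 0.52). Whether these genes are counted from 1 transcript was not tested. Of 1080 tested long non-coding RNA genes these 2 were called.

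3 further rises came from genes with few reads. dy (dusky), a zona pellucida domain protein of the cuticle, had 122.8, 118.6 and 93.07 normalized reads at 18 °C and 44.16, 46.82 and 46.6 at 29 °C, against 25.63 and 19.14 at 25 °C and 9.428, 10.26 and 7.977 before treatment. CG13639 had 138.6, 145.6 and 100.2 at 18 °C and 73.88, 72.96 and 58.63 at 29 °C, against 35.7 and 43.6 at 25 °C, with pre-treatment values of 51.85 to 60.42 that overlapped those at 29 °C. Hsp70Bb, an inducible heat shock gene, had 34.3, 35.58 and 50.12 at 18 °C and 129.9, 76.22 and 90.95 at 29 °C, against 17.39 and 22.33 at 25 °C, and 51.85, 37.62 and 35.9 before treatment. Hsp70 genes have near-identical copies, and how reads that match several of them were counted is not given in the sources used here, so its value is uncertain. The other copies were not called: the log2 fold changes at 18 and 29 °C were -0.12 and 1.58 for Hsp70Ab, 0.26 and 1.04 for Hsp70Bc and -0.44 and 0.03 for Hsp70Aa. These calls rested on single libraries. dy was not called without 18 °C replicate 1 or 2, 29 °C replicate 2 or either 25 °C library (limma adjusted p up to 0.0732). CG13639 kept its call only without 18 °C replicate 3 or pre-treatment replicate 3 (limma adjusted p up to 0.356 otherwise), and Hsp70Bb lost it whichever of the 11 libraries was left out (up to 0.369). Of 25 tested heat shock and chaperone genes Hsp70Bb alone was called, and the list median was 0.04.

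**Figure D3:**
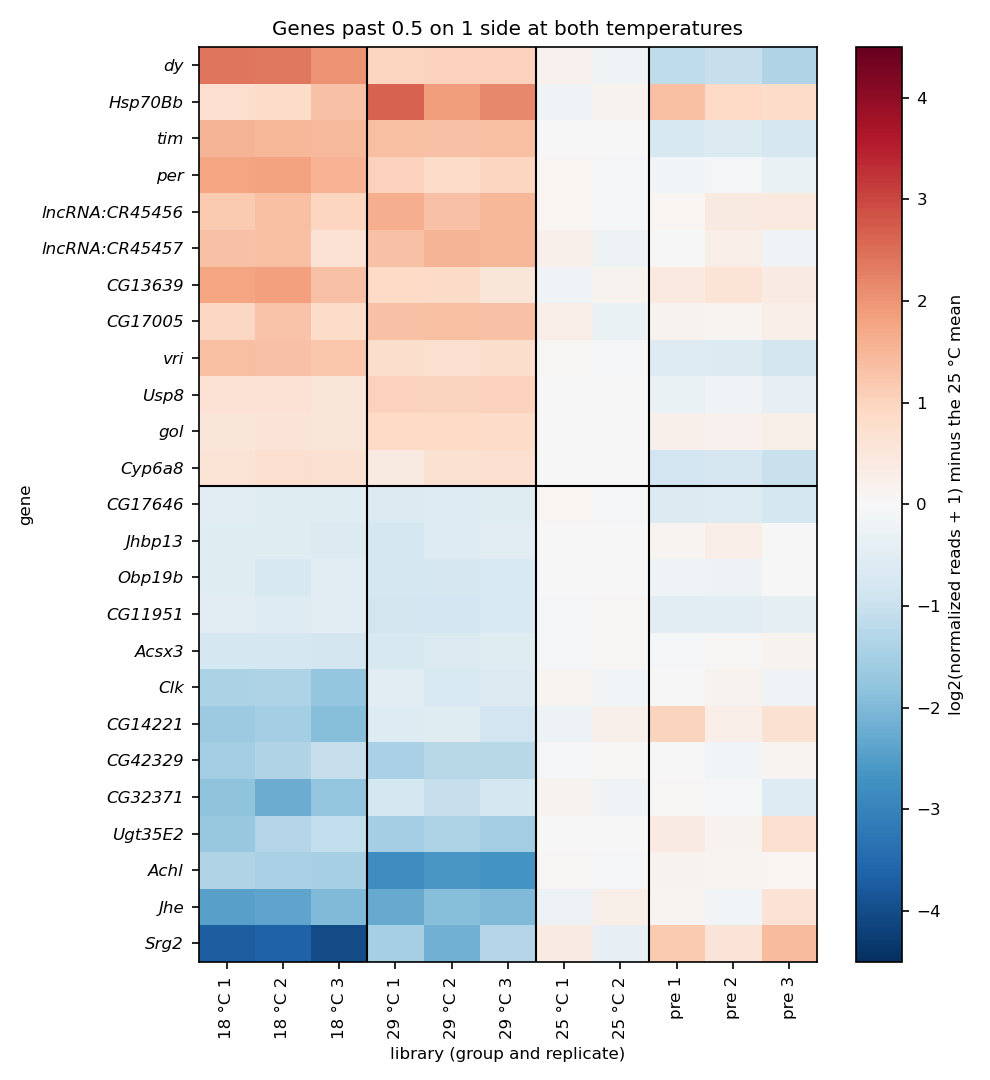
The 25 genes that moved the same way (rows) in each library (columns, grouped as 18 °C, 29 °C, 25 °C and pre-treatment). Colour gives log2(normalized reads + 1) minus the mean of the 25 °C libraries, from -4.01 to 2.66. The 18 °C and 29 °C blocks share a hue in every row, and the pre-treatment libraries lie on the 25 °C side of the shifted ones in 21 rows.

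Across the 25 genes the pre-treatment libraries sided with 25 °C in 21: all 3 were below the 6 shifted libraries in 10 of the 12 rises and above them in 11 of the 13 falls. Among all tested genes 2056 (16.2%) separated pre-treatment from the shifted libraries in either direction and 236 (1.86%) had all 5 libraries at 25 °C on 1 side. All 25 genes already had both 25 °C libraries outside the shifted range, and among the 709 tested genes with that trait the pre-treatment libraries joined them in 236. In the other 4 of the 25 (Hsp70Bb, CG13639, CG11951 and CG17646) the pre-treatment libraries overlapped the shifted ones. At a limma adjusted p under 0.05 and a size above 0.5, 25 °C differed from pre-treatment in 5 of the 25 (tim, vri, Cyp6a8, dy and CG17646). The same limits were passed by 688 of all tested genes (5.43%). CG11951 (0.48, limma adjusted p = 0.00447) and Usp8 (0.28, limma adjusted p = 0.0477) missed only the size limit. Pre-treatment and 25 °C flies differ in age by 10 days, and age cannot be told apart from any other difference between these collections.

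10 of the 25 also differed between 29 and 18 °C, so their response was one-sided but unequal. per, vri, dy and CG13639 stood higher at 18 °C and Hsp70Bb higher at 29 °C. Among the falls Clk, CG32371, CG14221 and Srg2 were lower at 18 °C and Achl lower at 29 °C. For the other 15 the difference between 29 and 18 °C was not called.

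The 12 called genes that did not move the same way had the larger single difference at 18 °C in 9 cases and at 29 °C in 3. Mdr50, which encodes an ABC-type efflux transporter, had 159.1, 217.7 and 239.8 normalized reads at 18 °C, 3329, 3971 and 3968 at 29 °C, and 2814 and 3295 at 25 °C. Among the exposed groups only the cold one was low. The pre-treatment libraries were low as well, at 421.1, 218.9 and 366.9, and overlapped those at 18 °C (25 °C minus pre-treatment 3.23, limma adjusted p = 0.000105). GstZ2, a zeta-class glutathione transferase, had 3102, 3134 and 2786 at 18 °C, 5548, 4952 and 5124 at 29 °C, and 7137 and 6922 at 25 °C. It was below 25 °C in all 6 shifted libraries, with -1.23 at 18 °C and -0.43 at 29 °C, but its pre-treatment values of 3931, 4366 and 3404 overlapped the shifted ones. CG31205 followed the same course (-1.70 and -0.45). Cyp18a1, which inactivates ecdysone, and Gclm, the modifier subunit of glutathione synthesis, were higher mainly at 18 °C, with 0.98 and 0.71 there and 0.24 and 0.40 at 29 °C. cyr, another zona pellucida domain gene (1.91 and 0.42), CG42269 (1.03 and 0.33), CG5535 (1.09 and 0.14) and CG9701 (1.15 and -0.12) did likewise. Before treatment CG42269 had 914.5, 1057 and 855.5, above all 6 shifted libraries. With the mean of 25 °C and pre-treatment as reference, the contrast was not called for Mdr50 (-0.19), GstZ2 (-0.40), CG42269 (0.0), CG8329 (-0.08), CG5535 (0.49) and Gclm (0.40). The others of the 12 kept their call with that reference. Of the 12, CG31205 and Ugt35B1 kept their call without any single library, and the other 10 lost it without at least 1. Without 25 °C replicate 1 the contrast was no longer called for Mdr50 (-1.92), GstZ2 (-0.81), cyr (1.06), CG42269 (0.67), CG5535 (0.52), CG9701 (0.54), Cyp18a1 (0.59) and Gclm (0.57), at limma adjusted p of 0.0682 to 0.394. Without 25 °C replicate 2 it was no longer called for Mdr50 (-1.69), Cyp18a1 (0.62), CG42269 (0.69), CG9701 (0.49), CG5535 (0.71), Pdh (-0.49) and CG8329 (-0.44), at limma adjusted p of 0.0511 to 0.127.

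The 3 with the larger difference at 29 °C were all lower. Ugt35B1, a UDP-glycosyltransferase with daily changes in the head, had 5935, 5900 and 6621 normalized reads at 18 °C, 2136, 2237 and 2230 at 29 °C, and 5634 and 6391 at 25 °C. Its log2 fold changes were 0.03 and -1.45. Pdh, the retinoid dehydrogenase of eye pigment cells, had 35812, 36901 and 37912 at 18 °C, 22085, 21961 and 24227 at 29 °C, and 40563 and 45535 at 25 °C (-0.22 and -0.92). It was the only called gene of 35 tested phototransduction and photoreceptor genes. Of these 35, 15 had an unadjusted limma p under 0.05, as did 912 of all 12676 tested genes. The list median was 0.03 for the contrast, -0.04 at 18 °C and 0.14 at 29 °C. The sum over the list was graded, with 25 °C between the others. It was 2810000 to 2929000 normalized reads at 18 °C, 3008000 to 3197000 at 25 °C and 3716000 to 3900000 at 29 °C. The serine protease-like CG8329, with 55052, 47350 and 54656 at 18 °C and 48304, 45380 and 45964 at 29 °C, against 67008 and 80323 at 25 °C, missed the limit at 18 °C narrowly (-0.49 and -0.66), and its difference between 29 and 18 °C was not called (-0.17, limma adjusted p = 0.223). Before treatment CG8329 had 36696, 37259 and 37602, below all shifted libraries. Gut markers, with 0 of 17 called, summed to 7564 to 8579 at 18 °C and 8825 to 12020 at 29 °C, against 7214 to 9857 at 25 °C.

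Of 36 lists with a tested member, 25 had 0 genes called by limma. Only 37 of 12676 tested genes (0.292%) were called, so 0 called in a short list says little about its genes. An unadjusted limma p under 0.05 was found in 912 of all tested genes. Neuron and synapse markers (49 tested, median 0.05), glia markers (26, 0.02), eye pigment genes (20, 0.08), muscle genes (30, -0.11), testis markers (21, -0.24) and male accessory gland markers (11, 0.05) had 0 called, with 1, 4, 2, 2, 2 and 2 genes at an unadjusted p under 0.05. Cytosolic ribosomal protein genes (83 tested, median -0.15) and nuclear-encoded oxidative phosphorylation genes (79, 0.02) had 0 called and 10 and 11 genes at an unadjusted p under 0.05. Of the lists with 0 called, that of small nucleolar and spliceosomal RNAs had the median farthest from zero (150 tested, 19 at an unadjusted p under 0.05), at 0.47 for the contrast, 0.44 at 18 °C and 0.52 at 29 °C. Its sum was 11274 in 25 °C replicate 1 and 38018 in 25 °C replicate 2, which was inside the range of the shifted libraries, and the exact two-sided permutation test of 6 against 2 libraries gave p = 0.357 (smallest possible 0.0714). Without 25 °C replicate 1 the median was -0.04 with 0 called, and without 25 °C replicate 2 it was 1.07 with 12 called.

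The counts rest on single libraries. Without 25 °C replicate 2, 84 genes were called and 77 moved the same way, of which 20 and 14 were among the original 37 and 25. Without 25 °C replicate 1 there were 19 and 13. Leaving out 18 °C replicate 1 or 29 °C replicate 2 gave 23 or 20 called, and leaving out 18 °C replicate 2 or 29 °C replicate 2 gave 16 or 15 that moved the same way. The genes that kept their call in all 11 of these fits were 14 of the 37 and 12 of the 25: tim, per, vri, Usp8, gol, lncRNA:CR45456 and CG17005 among the rises and Achl, Jhe, CG42329, Acsx3 and CG11951 among the falls. All 37 kept their sign in every fit tried.

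**Figure D4:**
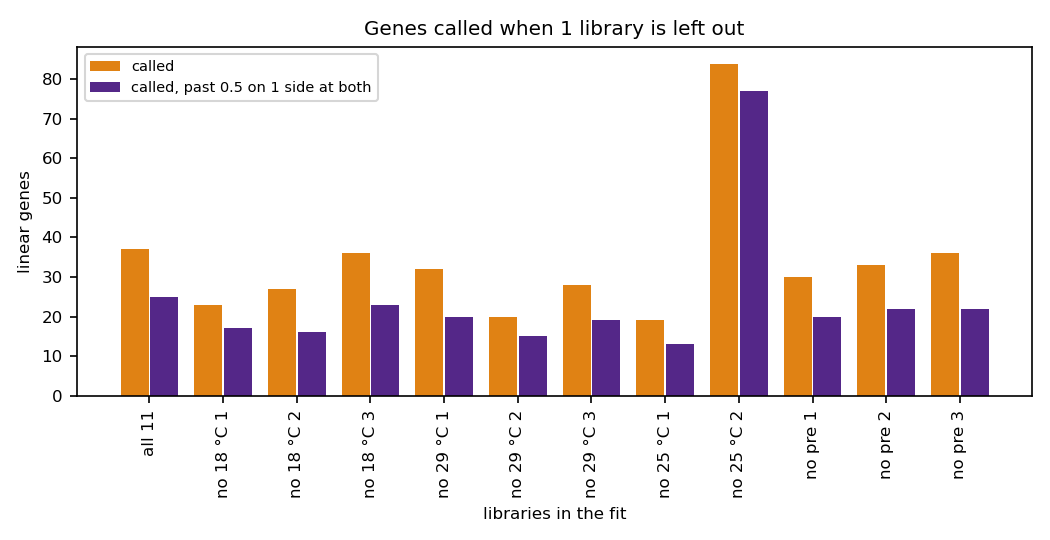
Number of linear genes (y axis, from 0) called in the contrast (orange) and moved the same way (purple) with all 11 libraries and with each library left out in turn (x axis). The bars for 25 °C replicate 2 reach 84 and 77, and those for 25 °C replicate 1 fall to 19 and 13.

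The same contrast was made for circRNAs, closed loops counted from reads across a back-splice junction. None of 1767 tested circRNAs (0.0%) was called by limma, edgeR or DESeq2, with 44 at an unadjusted p under 0.05 in limma, 45 in edgeR and 22 in DESeq2, and the lowest limma adjusted p was 0.419. In 79 (4.47%) both 25 °C libraries lay outside the 6 shifted ones, 50 with the shifted libraries above (2.83%) and 29 below (1.64%). Of these 79, 12 were among the 462 better measured circRNAs, whose mean was at least 20 normalized reads. For a tested circRNA, 2 SE of the contrast had a median of 1.25 on the log2 scale, without adjustment for the number tested. A call after adjustment needs a larger difference than this in such a circRNA, so differences above 1.25 are not excluded either. Pre-treatment replicate 2, whose circRNA sum of 13271 normalized reads stood below 31621 and 35197 in the other pre-treatment libraries, enters the estimate of the spread. Without it 0 circRNAs were called and 66 had an unadjusted limma p under 0.05.

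The circRNA of tim had too few reads for a close comparison with the linear transcript. This circRNA (2L, 3499321 to 3504578 in dm6, both ends at annotated exon ends) had 11.66, 8.538 and 2.386 normalized reads at 18 °C and 7.642, 8.711 and 10.52 at 29 °C, against 9.154 and 7.444 at 25 °C, from 10 and 7 reads in the 25 °C libraries. Its log2 fold change was -0.11 ± 0.743 (SE, limma adjusted p = 1), beside 1.42 ± 0.056 for linear tim, and the difference between circRNA and linear transcript was not tested. The other called host with circRNAs was CG17646, and its 5 circRNAs had no common direction: the most abundant (2L, 1741660 to 1742260) had 94.66, 78.27 and 112.2 at 18 °C and 31.42, 39.2 and 48.11 at 29 °C, against 63.16 and 65.93 at 25 °C, with 25 °C between the others.

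The circRNA with the lowest p among those at 20 or more normalized reads and without overlap came from gce, a juvenile hormone receptor gene (X, 15310378 to 15311216, both ends at annotated exon ends). It had 30.87, 23.24 and 33.41 normalized reads at 18 °C and 37.36, 42.47 and 29.32 at 29 °C, against 54.92 and 60.61 at 25 °C, a contrast of -0.82 ± 0.357 (SE, limma adjusted p = 1), so it was not called. The pre-treatment libraries, at 44, 18.24 and 31.91, overlapped the shifted ones. circRNAs of uex (2R, 3918151 to 3919358; -0.53), CG43658 (-0.54), Drl-2 (-0.43) and CG32333 (-0.49) were lower and one of Pde9 (0.45) higher without overlap and were not called (limma adjusted p = 1 for each). The most abundant circRNA, from muscleblind (mbl, 2R, 17275410 to 17276063), had 1082, 1035 and 922.4 at 18 °C and 2252, 2015 and 2192 at 29 °C, against 2328 and 1353 at 25 °C, so its 25 °C libraries spanned most of the distance between the shifted groups. That of btsz had 878, 707.7 and 1214 at 18 °C and 969.7, 1056 and 810.3 at 29 °C, against 1217 and 1157 at 25 °C.

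The sum over all circRNAs with a span of 50 nt or more, tested or not, did not separate 25 °C from the shifted temperatures. It was 35403, 29732 and 36893 normalized reads at 18 °C and 39109, 44203 and 39297 at 29 °C, against 33147 and 42418 at 25 °C. The ratio of the shifted mean to the 25 °C mean was 0.991 (exact two-sided permutation test over 6 against 2 libraries, p = 1, smallest possible 0.0714), so no p under 0.05 was possible. Without 25 °C replicate 1 the ratio was 0.883 and without 25 °C replicate 2 it was 1.13.

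**Figure D5:**
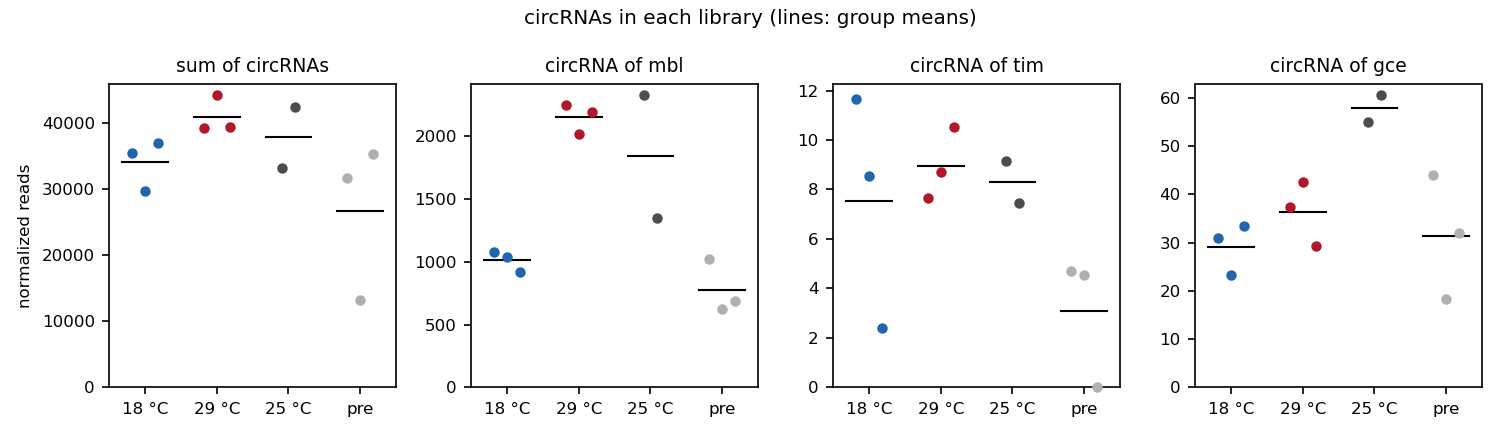
Normalized reads (y axis, from 0) of the sum of circRNAs and of the circRNAs of mbl, tim and gce in each library at 18 °C, 29 °C, 25 °C and before treatment. Points are libraries and lines are group means. Only for gce do both 25 °C libraries lie outside the 6 shifted libraries.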

How the data were processed

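Total RNA from heads was depleted of ribosomal RNA and sequenced as directional libraries. The authors deposited a normalized signal per gene and per circRNA: STAR alignments to dm6 were counted per gene by featureCounts, back-splice reads were counted by find_circ2, and a DESeq2 size factor, shared by both kinds of RNA, scaled each library. Program versions and the strand setting are not given in the sources used here. Each library's smallest step turned 100% of values into whole reads (within 0.01).

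The test was limma (version 3.58.1, R 4.3.3, moderated with an intensity trend) on log2(value + 1), with 1 fit of all 11 libraries for each kind of RNA and no covariate. Linear genes were tested at a mean of 10 or more (12676 of 13804), and circRNAs at a span of 50 nt or more with all libraries of 1 group above 3 (1767 of 1928). Recovered reads were used with edgeR 4.0.16 and DESeq2 1.42.0. The limma step was first tested on simulated reads with known changes, and edgeR and DESeq2 were not. Gene coordinates are those of Ensembl release 115 (the dm6 assembly), and Greek letters were repaired in 350 symbols. Labels name biological replicates without saying how they were drawn, so a p-value here speaks of the spread among these libraries, which may be technical. Floors cover counting error only.

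Named linear genes moved the same way at a mean of 100 or more without overlap, were up to 4 called members of a list, or were clock genes. The circRNAs named had a mean of 20 or more, or were among the 5 most abundant. CG31205, CG13639, CG42269, CG32371, CG8329, Srg2, CG9701, CG5535, Mdr50, cyr, dy, Cks30A, Eaat1 and the circRNAs of called hosts were named after their values were seen. Members and lists were chosen with earlier results of these data known. Alternatives were other pseudocounts, filters, scalings, tools, references and covariates, a replicate term, and leaving out each library. The labels do not say whether replicate numbers pair libraries, and deviations of libraries with the same number correlated at -0.471 to 0.472.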

Additional observations from a re-analysis of the deposited data

Results flagged for a closer look

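20 of the 37 called genes differed between 29 and 18 °C by limma, with adjusted p from 2.4e-06 to 0.0121. The 10 that moved the same way did so by unequal amounts. The log2 difference of 29 minus 18 °C was -0.79 for per, -0.54 for vri, -1.25 for dy and -0.88 for CG13639 among the rises that were larger at 18 °C, and 1.27 for Hsp70Bb, larger at 29 °C. Among the falls it was 0.91 for Clk, 1.07 for CG32371, 1.04 for CG14221 and 2.12 for Srg2, which were lower at 18 °C, and -1.27 for Achl, lower at 29 °C.

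Another 10 were called without moving the same way. The difference of 29 minus 18 °C was 4.20 for Mdr50, 1.26 for CG31205 and 0.79 for GstZ2, which were lowest at 18 °C. It was -1.49 for cyr, -1.27 for CG9701, -0.95 for CG5535, -0.74 for Cyp18a1 and -0.70 for CG42269. Among the exposed groups these were highest at 18 °C, while CG42269 was higher still before treatment. The difference was -1.48 for Ugt35B1 and -0.70 for Pdh, which were lowest at 29 °C.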

How the results depend on the processing

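Other pseudocounts, filters, scalings, edgeR, the 8 exposed libraries alone and joint adjustment left 32 to 40 linear genes called and 22 to 25 moved the same way. DESeq2 called 115 (52 higher, 63 lower), 50 of them the same way, including all of the 37 and 25. A term for depth gave 56 called. A term for the first within-group component, chosen after the data were seen, gave 178 called and 82 the same way, with pre-treatment siding with 25 °C in 33. With the mean of 25 °C and pre-treatment as reference, 309 were called, 154 moved the same way and 144 had pre-treatment on the 25 °C side, while 6 circRNAs were called and 1 moved the same way. The cause was not tested in these cases. With the replicate number as a block, 20 linear genes were called and 15 moved the same way, all of them among the original calls. The labels do not say whether the numbers pair the libraries, and 25 °C has only replicates 1 and 2.

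Leaving out 1 library at a time gave 19 to 84 called, 13 to 77 the same way, 11 to 23 siding with 25 °C, 0 to 0 circRNAs and a circRNA ratio of 0.883 to 1.13. Of 1885 values for single genes and circRNAs under the alternatives, 1728 kept their side of the threshold, 153 lost and 4 gained a call, and 0 reversed. The 2 libraries at 25 °C limit the precision of every value. The part of depth, and of pre-treatment replicate 2 with 0.0222% circRNA reads against 0.0529% and 0.055%, in the circRNA intervals was not tested.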

Other observations

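With the mean of the 25 °C and pre-treatment groups as the reference, 69 called genes had all 6 shifted libraries on 1 side of all 5 libraries at 25 °C, 37 higher and 32 lower, a separation present in 236 tested genes (1.86%) whatever their test. The pre-treatment flies are younger, so age is part of this reference. The remaining E-box targets of the clock were among the 69: cwo at 0.57 (limma adjusted p = 0.00164) and Pdp1 at 0.67 (limma adjusted p = 0.027). cry was called at -0.58 (limma adjusted p = 0.0414) with overlapping libraries, and cyc was not (-0.04, limma adjusted p = 0.712).

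Genes outside the clock that appeared with this reference, chosen after their values were seen, were of several kinds. CG10513 had 517.9, 385.2 and 752.9 normalized reads at 18 °C and 533.3, 668.6 and 455.5 at 29 °C, against 1033 and 2111 at 25 °C and 2139, 1769 and 2946 before treatment. lncRNA:CR42844 had 360.1, 474.3 and 280.4 at 18 °C and 447.5, 376.8 and 455.5 at 29 °C, against 246.2 and 153.1 at 25 °C and 191.7, 226.9 and 223.4 before treatment. ple, tyrosine hydroxylase of dopamine synthesis, differed most between pre-treatment and all other libraries, with 3471 to 4195 at 18 °C and 4497 to 4807 at 29 °C, against 4904 and 5625 at 25 °C and 12666 to 13683 before treatment.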
